A study of Homo sapiens with 12 samples.

Results

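Insulin lowers glucose output by liver cells, and the genes examined here are the 7 that encode the enzymes particular to gluconeogenesis, a transporter that the last step needs and the co-activator PGC-1alpha: PCK1, PCK2, PC, FBP1, G6PC, SLC37A4 and PPARGC1A. They were chosen by gene symbol, with earlier results of these data known. All 7 were found among the 26364 genes counted by RNA-seq in HepG2 cells, a human line derived from a liver hepatocellular carcinoma. The titles give 5 times after insulin stimulation, 0, 5, 10, 30 and 240 min, with 2 replicates each and thus 10 libraries. All groups were the same unmodified line, routinely grown in EMEM with serum, and the 0 min libraries served as the control. For its insulin experiments the study's methods describe a change to EMEM without supplements before insulin was given. No library without insulin was sequenced at a later time, so that insulin and time in culture cannot be told apart. The treatment text under every RNA library, 0 min included, names 16 h in EMEM and then 5 min of 3 nM insulin, while the text under the ChIP-seq samples describes days in EMEM, a 30 min washout and the same insulin dose, so the times used here are those of the titles. The study's methods call the RNA-seq samples biologically independent, within one experiment, and the labels do not tie replicates to separate cultures, so that p-values measure the spread between these libraries.

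Gluconeogenesis builds glucose from lactate, amino acids and glycerol and is carried out mainly by liver and kidney. Most of its steps are glycolytic reactions run backwards, but the irreversible ones need their own enzymes. Pyruvate carboxylase (PC) makes oxaloacetate in the mitochondrion, phosphoenolpyruvate carboxykinase turns it into phosphoenolpyruvate in the cytosol (PCK1) or in the mitochondrion (PCK2), fructose-1,6-bisphosphatase (FBP1) bypasses phosphofructokinase, and glucose-6-phosphatase (G6PC) releases glucose in the endoplasmic reticulum after the transporter SLC37A4 has carried glucose 6-phosphate in. PPARGC1A encodes PGC-1alpha, a transcriptional co-activator induced by glucagon through cAMP that works with FOXO1 and HNF4A on PCK1 and G6PC. Insulin signals through AKT, which keeps FOXO factors out of the nucleus.

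The upstream sequences are shown for the members whose RefSeq start lay within 100 bases of the start of the counted gene, since these are the windows at the start of the counted gene. Of the 7 members, 6 matched the RefSeq promoter table (GRCh38.p14, where G6PC is listed as G6PC1) with 10 windows, PCK1 did not, and 3 windows met the limit. Each is the 250 bases before the start, 5′ to 3′ on the gene's strand, and each was found once in the GRCh37 (hg19) genome of the counts: G6PC at chr17:41052566-41052815 (plus strand), PC at chr11:66725855-66726104 (minus strand) and SLC37A4 at chr11:118901588-118901837 (minus strand). Capitals mark matches, on either strand, to TGTTT (the core of forkhead motifs), TGACG (the core of the cAMP response element), TGACGTCA (the full element) and TATAAA (the TATA box).
G6PC: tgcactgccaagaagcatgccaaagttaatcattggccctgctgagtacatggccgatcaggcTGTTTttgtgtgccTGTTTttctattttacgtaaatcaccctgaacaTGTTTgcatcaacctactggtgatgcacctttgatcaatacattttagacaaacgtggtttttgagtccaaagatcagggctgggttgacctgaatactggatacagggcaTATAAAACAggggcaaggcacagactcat
PC: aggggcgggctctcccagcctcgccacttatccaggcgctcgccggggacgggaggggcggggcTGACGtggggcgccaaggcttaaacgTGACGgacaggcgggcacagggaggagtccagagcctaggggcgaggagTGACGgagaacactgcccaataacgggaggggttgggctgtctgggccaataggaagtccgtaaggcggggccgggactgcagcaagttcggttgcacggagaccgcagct
SLC37A4: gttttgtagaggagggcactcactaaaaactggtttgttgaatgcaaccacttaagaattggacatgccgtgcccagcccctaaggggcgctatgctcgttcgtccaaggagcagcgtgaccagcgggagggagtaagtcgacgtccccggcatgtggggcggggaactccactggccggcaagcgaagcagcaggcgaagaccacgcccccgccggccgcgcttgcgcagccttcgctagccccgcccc
The G6PC window held TGTTT 4 times, at 187, 173, 140 and 25 bases before the start, and TATAAA at 29 bases, where the last TGTTT (on the minus strand) and TATAAA overlap in 1 run of capitals. In the PC window TGACG stood at 186, 160 and 111 bases and TGTTT did not occur, and the SLC37A4 window held none of the 4 motifs. Other RefSeq starts inside these genes differed, since TGTTT stood 2 times before a PC start 50423 bases further in, and TGTTT and TATAAA stood once each before an SLC37A4 start 1426 bases further in. Gene counts do not separate transcripts from the different starts. Over the windows of the same length before 35116 RefSeq promoters, TGTTT was present in 40.4%, TGACG in 21.2%, TGACGTCA in 1.65% and TATAAA in 10.7%. The G6PC window had a GC content of 44.0%, against 67.6% for PC, 63.2% for SLC37A4 and a median of 58.0% over all promoters, and 20.1% of promoters lay below it. These matches describe letters in the printed windows and not bound sites.

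Libraries held 18347109 to 45005769 reads in genes, and ERCC spike-ins (synthetic RNAs) took 1.59 to 2.36% of reads, the highest share being that of 10 min replicate 2. The 11 hepatocyte markers were all detected in every library, with a sum of 66500 to 81600 CPM (reads scaled to a common library size, after TMM normalization). At 240 min against 0 min HNF4A was among those that rose (log2 fold change 0.30), and 2 fell (AHSG, -0.40, and APOA2, -0.32), or 5 without 240 min replicate 1. Of the 4 fetal liver and hepatoma markers H19 stayed below 1 CPM. Leukocyte (36.95 to 46.1 CPM, almost all CD68) and endothelial (2.43 to 4.21 CPM) markers summed to little, with PTPRC at 0 in every library, and none of the tested fetal, leukocyte and endothelial markers passed. Fibroblast and stellate markers summed to 66.3 to 78.5 CPM up to 30 min and to 53.7 and 56.8 CPM at 240 min, carried by ACTA2 and PDGFRB, which both fell (log2 fold change -0.30 and -0.53, with ACTA2 at an edgeR adjusted p of 0.0663 without 0 min replicate 2), while COL1A2 and DCN had at most 1 read, and their part in the members' changes was not tested. In such bulk libraries fewer cells of a type and less RNA per cell cannot be told apart.

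At 240 min 4 of the 7 members had fallen against 0 min and none had risen. G6PC fell most, to 23.7% of its 0 min level, followed by PCK1 (39.4%), PPARGC1A (48.5%) and PC (74.2%), whereas PCK2 (90.1%), SLC37A4 (95.6%) and FBP1 (78.1%) did not pass the test (edgeR quasi-likelihood test over 13852 genes, Benjamini-Hochberg adjusted p under 0.05). In the same comparison 20.4% of all tested genes were called lower and 20.6% higher, so that a call as such was common. The median log2 fold change was -0.43 over the members and -0.0026 over all tested genes. Ranked from the strongest fall, G6PC was number 8, PCK1 62, PPARGC1A 129 and PC 1229 of the 13852 genes.

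Of the glucose-6-phosphatase system the enzyme fell by 240 min, and its transporter did not pass the test. G6PC (chromosome 17, 41052814 to 41066450, plus strand, hg19), the catalytic subunit, measured 27.98 and 38.8 CPM at 0 min (replicates 1 and 2), 33.6 and 38.2 CPM at 5 min, 34.8 and 29.8 CPM at 10 min, 46.9 and 31.8 CPM at 30 min, and 10.2 and 5.57 CPM at 240 min. Both 240 min libraries lay below all 8 earlier ones. The share of all tested genes with such a separation, given below for other genes too, was not determined. The fall against 0 min was 4.18-fold, a log2 fold change of -2.07 (SE 0.21, 95% interval -2.50 to -1.63, edgeR adjusted p = 2.21e-07), and it ranged from -2.62 to -1.74 over 16 alternative analyses, all of which kept the call. At 240 min replicate 1 of G6PC exceeded replicate 2 by 0.88 on the log2 scale, against differences of 0.31 for PCK1, 0.17 for PPARGC1A and -0.01 for PC. SLC37A4 (chromosome 11, 118895061 to 118901616, minus strand), which brings the substrate to the enzyme, measured 42.6 and 40.3 CPM at 0 min and 38.8 and 40.4 CPM at 240 min. These ranges overlapped, with a log2 fold change of -0.06 (95% interval -0.20 to 0.079, edgeR adjusted p = 0.492), and this interval did not overlap that of G6PC. The difference between the 2 genes itself was not tested.

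Of the carboxykinases only the cytosolic form passed the test. PCK1 (chromosome 20, 56136137 to 56141513, plus strand), the cytosolic form, measured 12.7 and 11.9 CPM at 0 min, between 11.03 and 14.1 CPM in the 6 libraries from 5 to 30 min, and 5.36 and 4.31 CPM at 240 min. The 240 min libraries were again below every earlier one, a 2.50-fold fall (log2 fold change -1.32, SE 0.14, 95% interval -1.61 to -1.03, edgeR adjusted p = 3.63e-07). PCK2 (chromosome 14, 24563340 to 24573341, plus strand), the mitochondrial form, measured 123 and 109 CPM at 0 min and 103 and 105 CPM at 240 min, both below 0 min but within the range of the earlier libraries (91.4 to 123 CPM). Its log2 fold change was -0.15 (95% interval -0.30 to 0.0081, edgeR adjusted p = 0.122). It passed in 2 of 16 alternatives, with an edgeR adjusted p of 0.0436 without a filter on low counts and of 0.0393 with replicate number as a block.

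PC (chromosome 11, 66615997 to 66725847, minus strand), which feeds pyruvate into the pathway, fell less but with close replicates. It measured 60.7 and 63.5 CPM at 0 min, 55.9 to 60.6 CPM from 5 to 30 min, and 45.9 and 46.3 CPM at 240 min. The fall was 1.35-fold (log2 fold change -0.43, SE 0.055, 95% interval -0.55 to -0.32, edgeR adjusted p = 3.77e-06), and both late libraries stood below all 8 earlier ones. FBP1 (chromosome 9, 97365421 to 97402531, minus strand) was the least abundant member, with 18 to 62 reads per library. It measured 2.23 and 1.39 CPM at 0 min and 1.88 and 0.946 CPM at 240 min, so that the groups overlapped and no change was called (log2 fold change -0.22, 95% interval -0.90 to 0.47, edgeR adjusted p = 0.628). Its lowest library, with 18 reads, had an exact 95% Poisson interval of 0.561 to 1.5 CPM, which covers counting error only. The interval of the other 240 min library (1.88 CPM) was 1.38 to 2.50 CPM and overlapped it.

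PPARGC1A (chromosome 4, 23793644 to 23891700, minus strand) measured 36.0 and 36.8 CPM at 0 min, 34.7 and 40.2 CPM at 5 min, 32.5 and 31.3 CPM at 10 min, 32.8 and 29.2 CPM at 30 min, and 18.7 and 16.6 CPM at 240 min. The co-activator's transcript thus fell 2.06-fold by 240 min (log2 fold change -1.04, SE 0.085, 95% interval -1.22 to -0.86, edgeR adjusted p = 2.00e-08). Both 240 min libraries lay below all 8 earlier ones, and of the 7 members it had the smallest adjusted p.

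**Figure D1:**
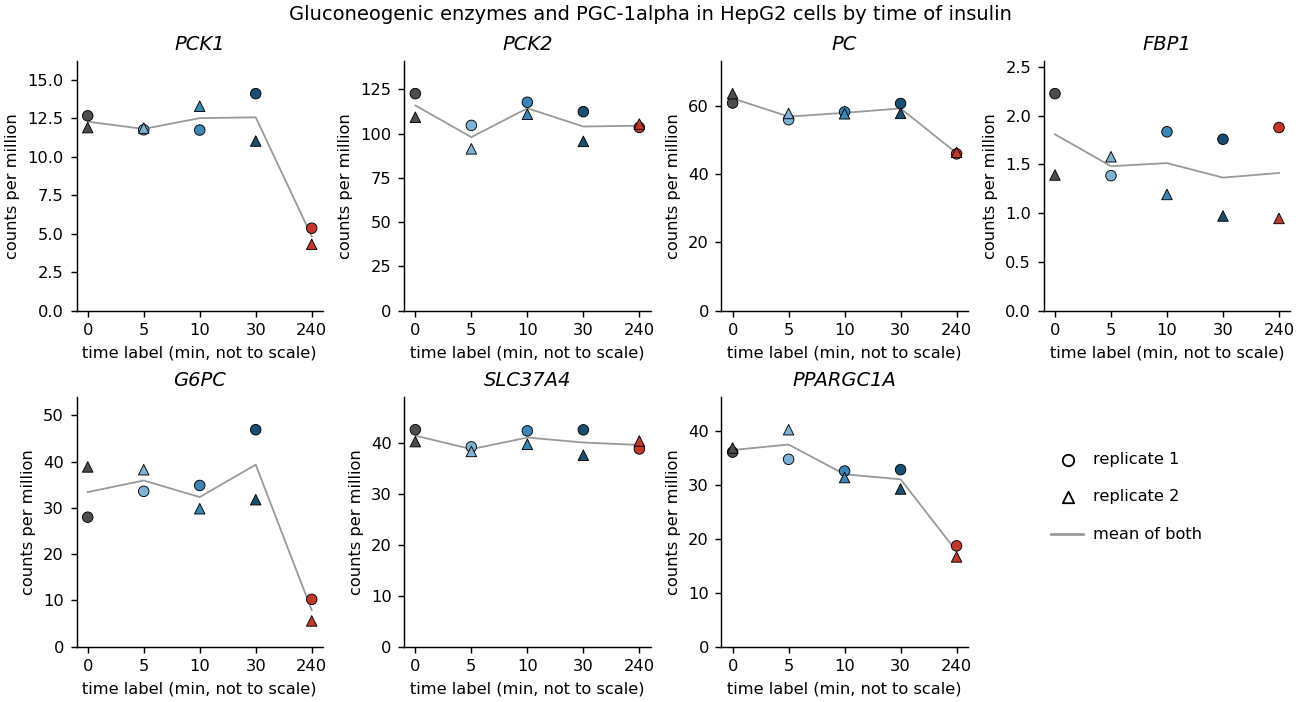
CPM (TMM scaled, y axes from 0) of each member in the 10 libraries against the time label in min (evenly spaced, not to scale), with circles for replicate 1, triangles for replicate 2 and a line through the mean of both. PCK1, PC, G6PC and PPARGC1A have both 240 min libraries below the 8 earlier ones, and PCK2, FBP1 and SLC37A4 do not. The share of all tested genes with this separation was not determined.

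None of the members passed the test in the first 30 min. Over all genes the edgeR test called 0% at 5 min (0 genes, with 1976 at an unadjusted p under 0.05 and 2 by DESeq2), 0.137% at 10 min (19 genes) and 0.332% at 30 min (46 genes), so that calls at these times were rare throughout the transcriptome. PPARGC1A, the co-activator, was lower at the later of these times than at 0 min, without passing the test. Its libraries at 10 min (32.5 and 31.3 CPM) and 30 min (32.8 and 29.2 CPM) lay below both at 0 min (36.0 and 36.8 CPM). Its log2 fold change was -0.19 at 10 min (95% interval -0.35 to -0.030, adjusted p = 0.822) and -0.23 at 30 min (95% interval -0.39 to -0.066, adjusted p = 0.404, edgeR). PCK2 and PC were lowest at 5 min among the early times, where PCK2 had the smallest adjusted p of any member before 240 min. PCK2 measured 105 and 91.4 CPM there, a log2 fold change of -0.23 (95% interval -0.39 to -0.081, edgeR adjusted p = 0.252), and without a filter on low counts this difference passed (edgeR adjusted p = 0.0120). PC measured 55.9 and 57.7 CPM at 5 min, a log2 fold change of -0.13 (edgeR adjusted p = 0.292). Both of its replicates were below those of 0 min at every later time. PCK1, PCK2 and SLC37A4 also had both 5 min libraries below those of 0 min. The share of all tested genes with such gaps was not determined.

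G6PC and PCK1 had positive differences at 30 min, of 0.22 (95% interval -0.12 to 0.56) and 0.06 (95% interval -0.18 to 0.29) on the log2 scale, and neither passed (edgeR adjusted p = 0.760 and 0.929). Without 30 min replicate 1, the library with the highest G6PC level, these differences were -0.11 and -0.15. Between 0 and 30 min no member's group mean left the range of 75.4 to 118% of its 0 min mean.

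The 240 min libraries were compared with those of 30 min as well. Against 30 min the same 4 members fell, and 18.4% of all tested genes were called lower and 19.8% higher. The log2 fold changes were -2.29 for G6PC (SE 0.21, edgeR adjusted p = 7.14e-08), -1.38 for PCK1 (SE 0.14, edgeR adjusted p = 2.78e-07), -0.81 for PPARGC1A (SE 0.088, edgeR adjusted p = 6.33e-07) and -0.36 for PC (SE 0.056, edgeR adjusted p = 3.79e-05). The members' median was -0.36. Averaged over the 3.5 h between these times, the change per hour on the log2 scale was -0.65 for G6PC, -0.39 for PCK1, -0.23 for PPARGC1A and -0.10 for PC, and no library between them was sequenced to show its course. PCK2, FBP1 and SLC37A4 had log2 fold changes of 0.0017 (95% interval -0.15 to 0.16), 0.05 (95% interval -0.69 to 0.79) and -0.02 (95% interval -0.17 to 0.12). For PC the call against 30 min was lost when libraries were scaled to the ERCC spike-ins (log2 fold change -0.35, edgeR adjusted p = 0.326). The comparisons with 30 min and with 0 min share the 240 min libraries.

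**Figure D2:**
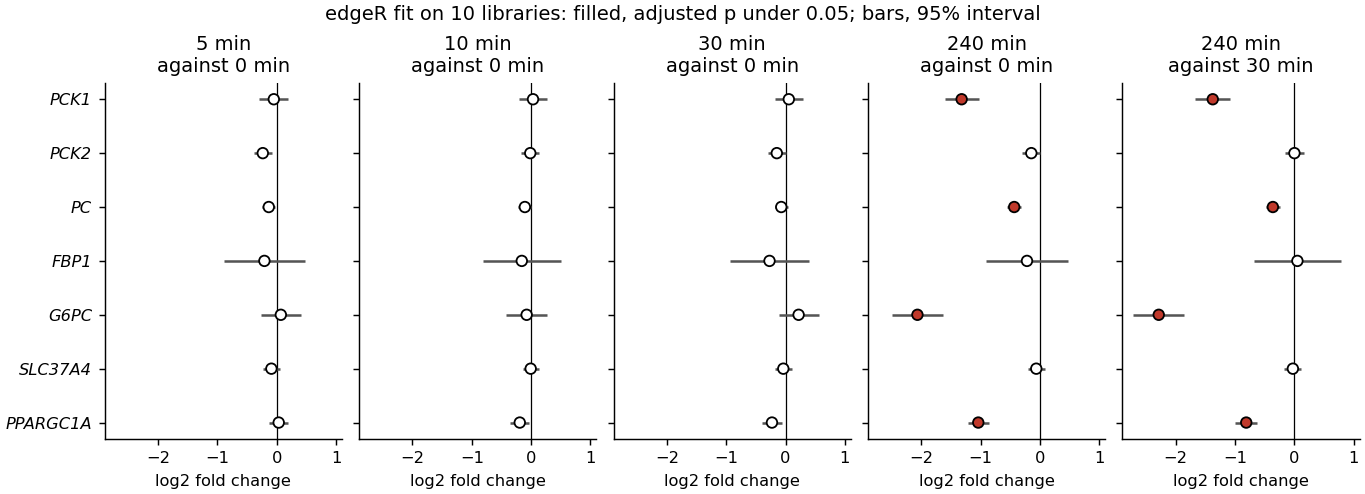
Log2 fold change (x axis) of each member in 5 comparisons, as points with 95% intervals from the edgeR fit on 10 libraries, filled where the adjusted p was under 0.05. All filled points are falls at 240 min (G6PC -2.07, PCK1 -1.32, PPARGC1A -1.04 and PC -0.43 against 0 min), and no point of the first 30 min is filled.

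Levels between genes were compared per transcript length, in the deposited TPM values (scaled for transcript length and library size). At 0 min PCK2 was the most abundant member with 121 ± 8.39 TPM (SD, n = 2), followed by SLC37A4 (48.3 ± 1.31 TPM), PC (38.6 ± 1.198 TPM), G6PC (19.7 ± 4.89 TPM), PPARGC1A (14.1 ± 0.315 TPM), PCK1 (11.1 ± 0.374 TPM) and FBP1 (2.71 ± 0.847 TPM), and no neighbours in this order had overlapping replicates. At 240 min the order was PCK2 (117 ± 3.40 TPM), SLC37A4 (46.7 ± 1.08 TPM), PC (27.9 ± 0.487 TPM), PPARGC1A (7.06 ± 0.495 TPM), G6PC (4.83 ± 1.96 TPM), PCK1 (4.49 ± 0.597 TPM) and FBP1 (2.16 ± 0.926 TPM). G6PC had thus moved from above PPARGC1A to below it, and G6PC and PCK1 overlapped.

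HepG2 cells carried most of their carboxykinase mRNA as the mitochondrial form, and the cytosolic share was lower at 240 min. PCK1 made up 8.20 and 8.58% of the summed PCK1 and PCK2 TPM at 0 min, between 7.75 and 10.6% in the libraries of 5 to 30 min, and 3.95 and 3.42% at 240 min. Likewise G6PC stood at 33.1 and 49.0% of the SLC37A4 TPM at 0 min, at 39.4 to 58.7% from 5 to 30 min, and at 13.5 and 7.25% at 240 min. In both ratios the late libraries lay apart from all 8 earlier ones. Summed over all 7 members the level went from 256 ± 4.52 TPM at 0 min to 210 ± 5.82 TPM at 240 min (SD, n = 2), and without PCK2 from 135 ± 3.88 to 93.2 ± 2.42 TPM.

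**Figure D3:**
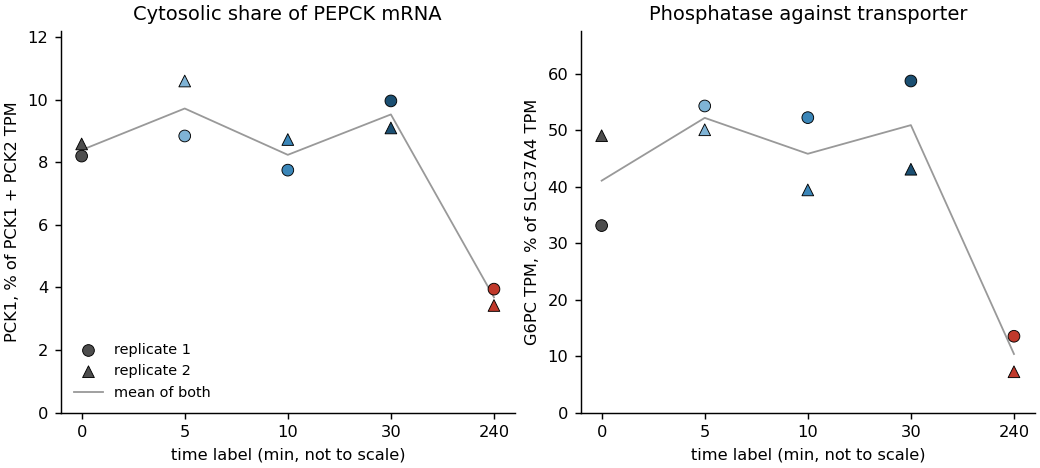
PCK1 as a percent of PCK1 plus PCK2 TPM (left) and G6PC TPM as a percent of SLC37A4 TPM (right) against the time label in min (evenly spaced, not to scale), with circles for replicate 1, triangles for replicate 2 and a line through their mean. The 240 min libraries (3.95 and 3.42% on the left, 13.5 and 7.25% on the right) lie below all others.

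The counts and the TPM were made from the same alignments by different programs, and they gave the same 4 falls. TPM per CPM varied across the 10 libraries by a factor of 1.05 for PCK1 and PPARGC1A and of 1.06 for G6PC and PC. On the log2(TPM + 1) scale the differences at 240 min against 0 min were -1.85 for G6PC, -1.14 for PCK1, -0.91 for PPARGC1A and -0.46 for PC, with limma adjusted p of 0.00103, 0.000285, 0.000226 and 0.000262. The pseudocount of 1 makes these smaller than the count-based values for low genes. FBP1 and PCK2 agreed less closely (factors of 1.13 and 1.17). SLC37A4 was the exception, with TPM per CPM varying by 1.27 times, more than its CPM did (1.13 times), and a Pearson r of log2 TPM with log2 CPM of 0.17 over the 10 libraries. Its TPM was low in 5 min replicate 1 (37.2) and 10 min replicate 1 (40.1) and 44.1 to 49.2 in the other 8, while its CPM was lowest in 30 min replicate 2. Of the SLC37A4 exon bases 13.3% overlap TRAPPC4 on the other strand, as 14.8% of FBP1 exon bases overlap PCAT7 and 8.50% of PC exon bases overlap LRFN4. The gene counts were made with strand, and the part of these overlaps in the TPM was not tested. The 50-base words in the members' transcripts were sought, on either strand, in transcripts of other genes. None of those of PCK1, PCK2, PC and PPARGC1A and 0.832% of those of G6PC occurred there. The shares were 9.18% for SLC37A4 (all TRAPPC4) and 13.3% for FBP1 (all PCAT7).

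**Figure D4:**
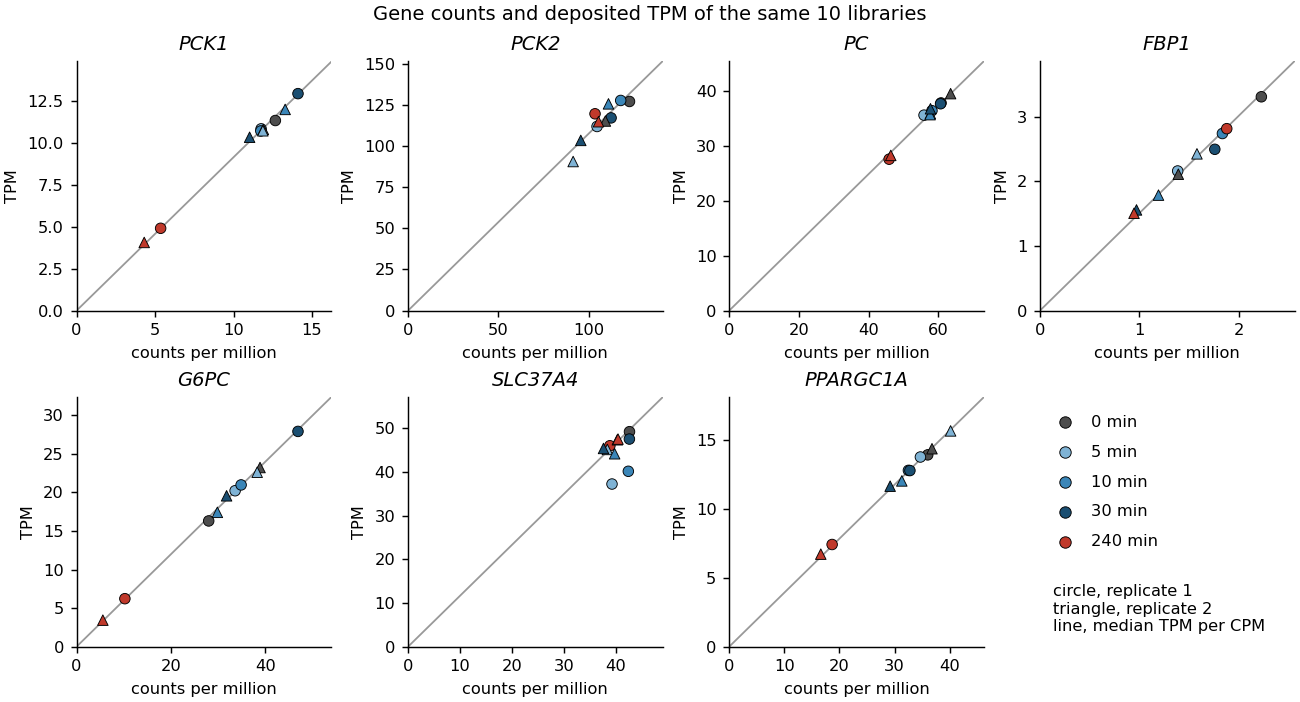
Deposited TPM (y axis) against CPM (x axis) for each member in the 10 libraries, coloured by time, with circles for replicate 1, triangles for replicate 2 and a line at the member's median TPM per CPM. PCK1, PC, G6PC and PPARGC1A follow their lines, and SLC37A4 has 2 libraries (37.2 and 40.1 TPM) well below its own.

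The 4 members that fell varied together over the 10 libraries, with Pearson r of log2 CPM between 0.92 (PC with G6PC and with PPARGC1A) and 0.97 (PCK1 with G6PC). Over the 8 libraries up to 30 min the same 6 pairs had r of -0.0066 to 0.32, so that the likeness rested on the 240 min libraries. PCK2 and SLC37A4 had r of 0.89 over all 10 libraries and 0.90 over the 8. The genes outside the 7 most like each called member, among 10382 with a mean of at least 5 CPM over these 10 libraries, were MAF1, C16orf70 and IL1RN for PCK1 (r of 0.99 each), SLC1A2, AGAP1 and BDH1 for G6PC (0.99, 0.99 and 0.99), RXRB, MINK1 and PPP6R2 for PC (0.99, 0.98 and 0.98), and CCDC117, SYNJ2 and VPS54 for PPARGC1A (0.99 each). These points share the same libraries and the same late time.

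PGC-1alpha has a pair of relatives, PPARGC1B (PGC-1beta) and PPRC1 (PRC), and these rose as PPARGC1A fell. PPARGC1B measured 2.55 and 1.82 CPM at 0 min, 1.64 to 2.22 CPM from 5 to 30 min, and 6.80 and 7.20 CPM at 240 min, a log2 fold change of 1.74 (SE 0.18, 95% interval 1.37 to 2.11, edgeR adjusted p = 2.82e-07). All 15 alternative analyses that tested it called it higher, and it is named here after its values were seen, since its mean of 3.07 CPM lay below the limit of 5 CPM set for named genes. PPRC1 measured 52.3 and 52.1 CPM at 0 min and 79.2 and 79.5 CPM at 240 min, with no overlap with the 8 earlier libraries (45.6 to 52.3 CPM). Its log2 fold change was 0.60 (SE 0.053, edgeR adjusted p = 4.45e-08), and the edgeR adjusted p was 0.0900 with ERCC scaling. Among 6 tested isoenzymes and relatives of the members these were the 2 rises, and none fell. G6PC3, the ubiquitous phosphatase, had a log2 fold change of 0.0033 (95% interval -0.14 to 0.15).

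The other genes of the pathway are given by lists, whose called members at 240 min against 0 min are read beside the 20.4% lower and 20.6% higher of all tested genes. Of the 15 tested enzymes that glycolysis and gluconeogenesis share, 1 fell (GOT1, the cytosolic aspartate aminotransferase, log2 fold change -0.37) and none rose, with a median of -0.02. Among 15 tested genes of the opposing glycolytic steps 5 rose and 4 fell, with a median of 0.07. PDK1 (0.61), PFKFB4 (0.54) and PFKFB2 (0.27) led the rises, and GCKR (-0.34), PFKFB1 (-0.34) and PDK2 (-0.21) the falls. Without 0 min replicate 2 the list had 2 rises and 1 fall, with PFKFB2 at 0.16 (edgeR adjusted p = 0.218) and PDK2 at -0.16 (edgeR adjusted p = 0.178), and these genes also lost their call without 240 min replicate 2, when 2 genes fell. PFKFB1 lost its call whichever of the 4 libraries was left out (edgeR adjusted p up to 0.159). PFKFB enzymes set the level of fructose 2,6-bisphosphate, which inhibits FBP1.

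In substrate entry 4 of 15 genes rose and 5 fell (median -0.06). The falls were led by GPT2, an alanine aminotransferase (-0.83), GK, glycerol kinase (-0.67), and SLC2A2, the glucose transporter GLUT2 (-0.66), and the rises by GPD1, glycerol-3-phosphate dehydrogenase (0.84), SLC25A11 (0.36) and MPC1, a subunit of the mitochondrial pyruvate carrier (0.21). The rises were 2 without 0 min replicate 1, 0 min replicate 2 or 240 min replicate 1, and MPC1 lost its call in each of these fits, being at 0.059 without 240 min replicate 1 (edgeR adjusted p = 0.673) and at 0.33 without 240 min replicate 2. SLC2A2 went from 68.5 and 72.8 CPM to 46.2 and 43.7 CPM, below all 8 earlier libraries.

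Of 30 transcription factors and co-factors of gluconeogenic genes 8 rose and 11 fell (median -0.08). FOXO4 (-0.84), KLF15 (-0.77) and NR0B2 (-0.67), which encodes the repressor SHP, fell most, and CEBPA (1.12), NR4A1 (0.88) and TRIB3 (0.64) rose most. NR0B2 and TRIB1 were also lower at 30 min (-0.48, adjusted p = 0.00986, and -0.42, adjusted p = 0.000725, edgeR) and TRIB1 at 10 min (-0.45, edgeR adjusted p = 0.000269), and they are named at these times after their values were seen. Among 12 genes of the glucagon and cAMP arm 2 rose, SIK1 (0.61) and PRKAR2A (0.18), and 5 fell, led by PDE4D (-0.47), ADCY6 (-0.43) and SIK2 (-0.33). PRKAR2A lost its call without 0 min replicate 1, 0 min replicate 2 or 240 min replicate 1, being at 0.11 without the last (edgeR adjusted p = 0.288), which left 1 rise. SIK kinases restrain the CREB co-activators of gluconeogenic genes.

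Of 12 FOXO target genes that insulin represses in liver 7 fell and none rose (median -0.28), and 4 to 6 fell with 1 library left out, the fewest without 240 min replicate 2. IGFBP1, which encodes an IGF-binding protein of the liver, fell furthest, from 270 and 290 CPM to 36.7 and 39.9 CPM (log2 fold change -2.88, edgeR adjusted p = 3.63e-16), followed by TAT, a tyrosine aminotransferase (-0.80), and TXNIP (-0.70). IGFBP1 was also lower at 10 min (-0.48, edgeR adjusted p = 0.000269) and at 30 min (-0.35, edgeR adjusted p = 0.00656), when no member passed, and these times too were picked after the values were seen. Of 12 mitochondrial genes that PGC-1alpha is known to raise, 4 rose, among them CYCS, cytochrome c (0.61), TFB2M (0.28) and TFAM (0.22), 1 fell (SOD2, -0.14) and the median was 0.16. Without 0 min replicate 1, 0 min replicate 2 or 240 min replicate 2, SOD2 was not called (edgeR adjusted p up to 0.175). With ERCC scaling no gene of this list and none of the opposing glycolytic list passed, and 24 of 39 genes (those chosen by the naming rule from all lists, and PPARGC1B) lost their call, while PPARGC1B kept it. Between 4 and 8 of the 39 lost it when 1 library was left out, the most without 0 min replicate 2.

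**Figure D5:**
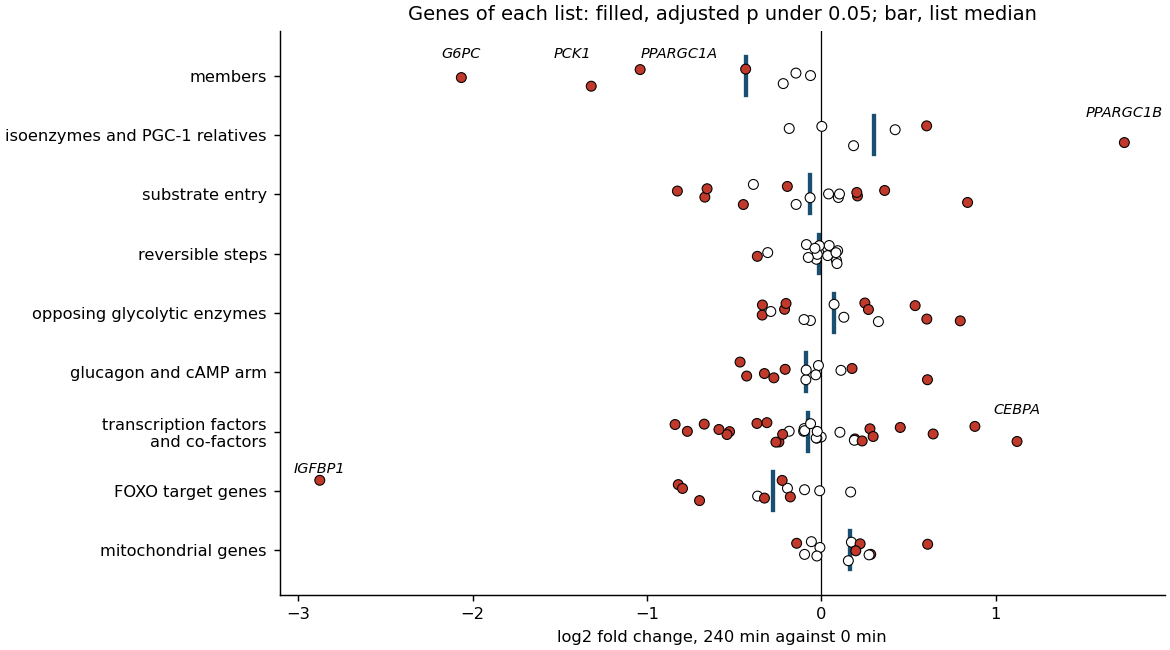
Log2 fold change at 240 min against 0 min (x axis) for each tested gene of the 9 lists, filled where the edgeR adjusted p was under 0.05, with a bar at the list median. The members (median -0.43) and the FOXO targets (median -0.28) lie to the left, PPARGC1B (1.74) and CEBPA (1.12) are the highest points, and IGFBP1 (-2.88) is the lowest.

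Insulin receptor (IR) ChIP-seq of the same line gave 1971 peaks from 1 library, without a replicate. A peak lay within the gene body extended by 5 kb for 1 of the 7 members, FBP1, against 15.6% of 13703 tested genes with a single position. With an extension of 1 kb it was 1 of 7 (FBP1) against 14% of these genes, with 20 kb 2 of 7 (PCK2 and FBP1) against 21%, and with 5 kb and peaks scoring above the median 0 of 7 against 8.75%. This FBP1 peak (chromosome 9, 97370721 to 97371123, hg19) was 31408 bases from the start of the gene, and its score of 40 was below the median of 79 over all peaks (rank 1477). The nearest peaks to the other starts were at 19.6 kb for PCK2, 156 kb for G6PC, 170 kb for PCK1, 240 kb for SLC37A4, 443 kb for PC and 5868 kb for PPARGC1A. The annotation deposited with the peaks places the FBP1 peak nearest to FBP2, the neighbouring gene. No peak was listed within the gene body extended by 20 kb at any of the 4 genes that fell.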

How the data were processed

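RNA-seq of HepG2 cells gave 10 libraries, 2 per time. The authors trimmed single-end reads with Trim Galore 0.6.4, aligned them to hg19 with STAR 2.6.1d and deposited raw counts per gene from featureCounts 1.6.4 with reverse strandedness. The TPM were deposited per library from StringTie and were summed here per gene identifier. The IR peak list was deposited by the authors with a peak score (BWA 0.7.17-r1188, MACS2 2.2.7.1 and HOMER, 1 library). The 92 ERCC rows (1.59 to 2.36% of counts) were left out of library sizes.

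Counts were fitted with edgeR 4.0.16 in R 4.3.3 (filterByExpr, TMM, quasi-likelihood test, 13852 of 26364 genes) on all 10 libraries with time as the only factor, and p-values were adjusted by Benjamini-Hochberg over all tested genes at 0.05. Intervals are 95% intervals of this fit. CPM are counts scaled to a common size of the TMM-scaled library. On simulated counts for 240 min against 0 min (13739 genes, 199 planted changes of 1 on the log2 scale), 173 (86.9%) were recovered among 187 calls. The data held more calls, some of them of smaller changes, so this rate does not describe them. TPM were tested with limma 3.58.1 on log2(TPM + 1). DESeq2 1.42.0, other scalings and filters, fewer libraries, a replicate block and leaving out each library were tried. Within a time, replicate counts differed by more than sampling noise (chi-square per degree of freedom 2.86 to 6.46). The members and lists were chosen with earlier results of these data known. From each list, up to 3 rises and 3 falls with a mean of at least 5 CPM were named. Some genes of the marker and pathway lists are not reported here by name. Gene positions and overlaps came from GENCODE annotation on GRCh37.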

Additional observations from a re-analysis of the deposited data

How the results depend on the processing

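The counts of members called at 240 min against 0 min and against 30 min stayed within 3 to 5 in all alternatives, and G6PC, PCK1 and PPARGC1A were called in each of them. PC was lost only with ERCC scaling against 30 min, and against 0 min its edgeR adjusted p with this scaling was 0.0490. PCK2 was added against 0 min without a filter on low counts and with the replicate block. At 5 min 1 member (PCK2) was called without a filter. Over all genes, same-numbered deviations correlated weakly (-0.115 to 0.133 over 10 pairs of times, 2 of them over 0.1), which does not settle pairing for single genes. The replicate block lowered the SE of PCK2 at 240 min against 0 min from 0.073 to 0.056, and it changed no other member call.

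Uncalled values near 0 changed sign. Against 30 min at 240 min PCK2 was -0.00425 with DESeq2, -0.00369 with RLE scaling and -0.00485 with only the 4 libraries compared, and SLC37A4 was 1.60e-05 with upper-quartile scaling and 0.0094, 0.0096 and 0.0094 with limma on log2(TPM + 1), with a pseudocount of 0.1 and for the genes averaging 1 TPM or more. In these limma fits PCK2 at 10 min was 0.065, 0.066 and 0.065. ERCC scaling gave PCK1 -0.082 at 30 min and -0.31 at 10 min, and PPARGC1A -0.048 at 5 min. It moved the median of all genes by -0.12 at 240 min, -0.13 at 30 min, -0.32 at 10 min and -0.08 at 5 min, each against 0 min.

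Leaving out 1 library at a time gave ranges on the log2 scale of -0.85 to 0.14 (FBP1), at 240 min against 0 min, and, against 30 min, of -0.11 to 0.13 (PCK2), -0.58 to 0.59 (FBP1) and -0.11 to 0.072 (SLC37A4). At 30 min against 0 min they were -0.15 to 0.21 (PCK1), -0.11 to 0.51 (G6PC), -0.81 to 0.043 (FBP1) and -0.14 to 0.046 (SLC37A4). At 10 min they were -0.058 to 0.12 (PCK1), -0.10 to 0.066 (PCK2), -0.26 to 0.21 (G6PC), -0.54 to 0.13 (FBP1) and -0.052 to 0.037 (SLC37A4), and at 5 min -0.12 to 0.36 (G6PC), -0.59 to 0.083 (FBP1) and -0.072 to 0.14 (PPARGC1A).

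Counts over all genes at 240 min were 5676 against 0 min and 5297 against 30 min, and 1059 and 917 with ERCC scaling, where 31.3 and 62.5% of calls were higher in place of 50.2 and 51.8%. With limma on log2(TPM + 1) 60.7% of 4584 calls against 0 min were higher. At 30 min the 46 calls became 160 without a filter, 96 with the likelihood ratio test, 4 with ERCC scaling, 8 or 9 with limma and 18 (without 0 min replicate 1) to 46 with 1 library left out. At 10 min the 19 calls became 74, 43, 40 with only the 4 libraries compared, 1 or 4 with limma and 9 (without 10 min replicate 2) to 20 with 1 library left out. At 5 min there were 144 calls without a filter, 19 with the likelihood ratio test, 22 without 5 min replicate 1, and 0 to 2 otherwise. For IR peaks, 2 members (PCK2 and FBP1) had one within 20 kb of the gene body (21% of all tested genes), and 0 had one within 5 kb among peaks scoring above the median (8.75%). The causes of these shifts were not tested. FBP1 had 18 to 62 reads per library and replicates up to 0.99 apart on the log2 scale, and depth and replicate spread were not separated for it.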

Other observations

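At 30 min all 7 members were higher in replicate 1 than in replicate 2, as were 6 of 7 at 10 min, 4 of 7 at 0 min and at 240 min, and 2 of 7 at 5 min. The differences at 30 min ran from 0.07 (PC) to 0.86 (FBP1) on the log2 scale, with 0.56 for G6PC and 0.36 for PCK1. The share of all tested genes that were higher in replicate 1 at each time was not determined.

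Of the 10 RefSeq windows, 7 lay further from the counted start. PPARGC1A had 2 of them. One start is inside the counted gene, 8976 bases downstream of the counted start, and the 250 bases before it (chr4:23882725-23882974 on GRCh37) had a GC content of 44.0% and held TGTTT 5 times. The other lies upstream of the counted gene, and its window had a GC content of 70.8% and held TGTTT and TGACG once each. Of the 2 further PC windows one held TGTTT 2 times and the other none of the 4 motifs, the further SLC37A4 window held TGTTT and TATAAA once each, and the FBP1 and PCK2 windows held none.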
